A study of Drosophila melanogaster with 12 samples.

Results

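S2 cells, a phagocytic line grown from late Drosophila melanogaster embryos, were compared after 48 hours with 100 µmol/L of the porphyrin TMPyP4 or with its solvent DMSO. The comparison used 6 of the 12 libraries of the series, 3 per group, assigned by the labelled concentration. The labels give DMSO replicates 1 to 3 and 100 µmol/L replicates 1 to 3, all from the same cell line with no genetic change. The other 6 libraries, 3 at 25 and 3 at 50 µmol/L, entered the fit for the spread and served as side values. The control carries a label of 100 µg/L whose meaning is not stated. Nothing in the labels says that replicates came from separate cultures, so p-values measure the spread between these libraries, which may be technical, in 1 cell line.

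TMPyP4 is a cationic molecule that binds G-quadruplexes, folds in which guanine-rich DNA or RNA stacks into planar layers, and the study asked how such binding alters gene expression. Quadruplexes occur in promoters, telomeres and RNA, and helicases and RNA-binding proteins resolve or bind them. TMPyP4 also binds duplex DNA, and porphyrins of this kind are known photosensitisers. S2 cells resemble hemocytes, the blood cells of the fly, which secrete basement membrane and engulf debris.

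Poly(A) RNA was counted per gene, and levels are given as CPM, counts scaled to a common library size with TMM factors. Gene counts ran from 7711896 to 9241109 in the DMSO libraries and from 4960934 to 9662038 at 100 µmol/L, the lowest in replicate 2. Of 13 hemocyte markers in the table, 11 passed the filter on low counts, while He and NimC1 stayed under 1 CPM in all 6 libraries. The summed level of the neuron list was 0.654 to 2.52 CPM in DMSO and 1.19 to 1.43 CPM at 100 µmol/L, and that of the fat body list was at most 0.131 CPM. Single genes of other lists stood higher, among them bam of the germ line at 158 to 197 CPM, fs(1)Yb of ovarian somatic cells at 106 to 132 CPM, PPO3 of lamellocytes at 15.3 to 24.0 CPM, Mf of muscle at 6.09 to 15.7 CPM and PPO2 of crystal cells at 1.41 to 4.54 CPM, with vas and tj under 1 CPM.

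TMPyP4 at 100 µmol/L changed 379 of 7328 tested genes (edgeR quasi-likelihood test, adjusted p under 0.05), 5.17% of those tested. Of these, 116 genes were higher (1.58%) and 263 were lower (3.59%), against a median log2 fold change of 0.01 over all tested genes. Decreases were the larger changes, with a median log2 fold change of −1.02 among lower genes and 0.61 among higher genes. A change of at least 2-fold was seen in 134 lower but only 25 higher genes. The 6 libraries separated without overlap for 116 of 116 higher and 261 of 263 lower genes, where 13.7% of all tested genes had every 100 µmol/L library above DMSO and 13.4% had every one below.

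Single libraries weighed on these calls. Without 100 µmol/L replicate 3 only 89 of the 379 genes kept their call, without replicate 2 only 95, and without DMSO replicate 1 only 114, whereas 313 kept it without DMSO replicate 2. A call that held in all 6 fits with 1 library left out was kept by 67 genes (0.914% of those tested), 16 higher (0.218%) and 51 lower (0.696%). With runs of neighbouring leading numbers in the sample titles as a block, 1 gene was called, the zinc importer foi. What those numbers mean is not stated, and of the runs only 1 holds libraries of both groups, replicate 2 of each.

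**Figure D1:**
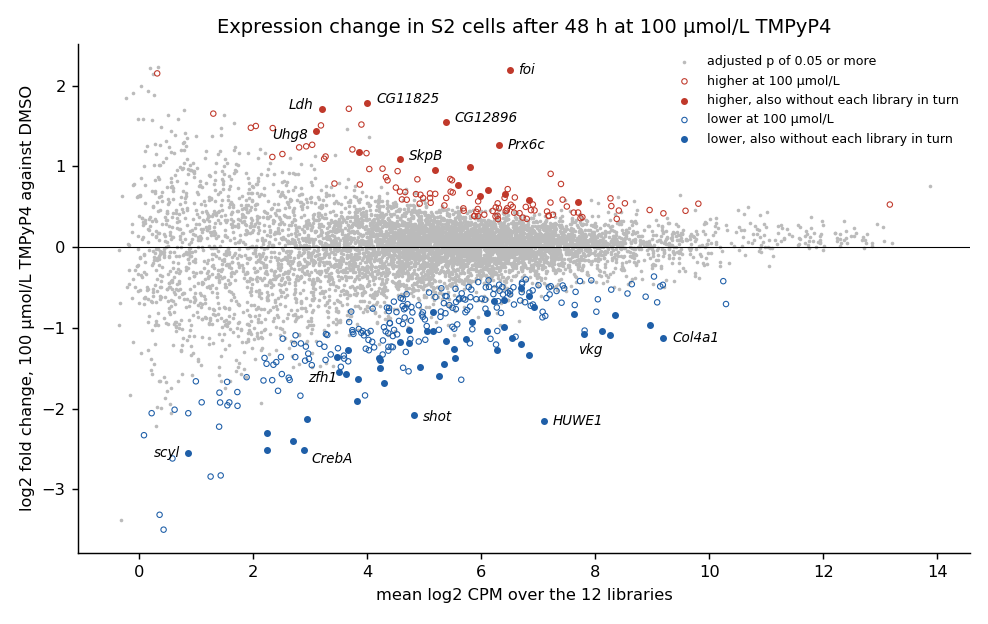
Log2 fold change at 100 µmol/L TMPyP4 against DMSO for each of the 7328 tested genes (y axis) by mean log2 CPM over the 12 libraries (x axis); red genes were higher and blue genes lower, and filled points mark the 67 calls that held without each library in turn. Decreases reach further from 0 than increases, and foi lies at the top with a log2 fold change of 2.19.

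What the changed genes shared was length. The median exonic length (all annotated exons of a gene merged) was 2084 bases over all tested genes, 1423 for higher and 7369 for lower genes, and 10819.5 for lower genes called in all 6 reduced fits. Lower genes also had more exons, with a median of 10 merged exon blocks against 4 over all tested genes, and a median genomic span of 14774 against 2689 bases. In 10 bins of equal size by length, the bin of longest genes (5725 to 69810 bases) had a median log2 fold change of −0.56, with 167 genes lower and 1 higher. The bin of shortest genes (55 to 852 bases) had a median of 0.14.

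When log2 CPM, centred for each gene over the 12 libraries, was regressed on log2 exonic length, the slope was 0.264, 0.0545 and 0.154 in the DMSO libraries. It was 0.0285, −0.0489 and −0.109 at 100 µmol/L. Every treated library thus lay below every DMSO library, DMSO replicate 1 stood highest, and the difference of −0.201 had an exact two-sided permutation p of 0.1, the smallest that 3 against 3 allows. Of the same-numbered pairs the replicate 2 libraries lay closest, at 0.0545 and −0.0489, but DMSO replicate 2 lay nearer to 100 µmol/L replicate 1 at 0.0285.

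An offset that removed the length trend from each library left 209 genes changed among 7263 with a known length (2.88%), 111 higher (1.53%) and 98 lower (1.35%). Of the original calls 66 higher and 80 lower genes kept theirs, and all 16 higher but only 31 of the 51 lower genes of the stricter set did (47 genes, 0.641% of those tested). The part of the length trend in the changes was not tested beyond this offset.

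**Figure D2:**
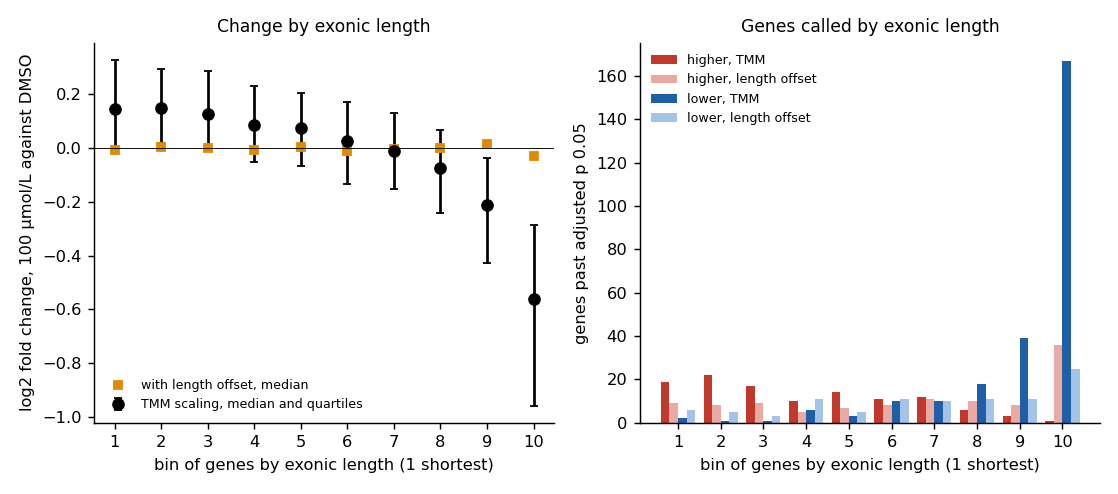
Left, median log2 fold change at 100 µmol/L against DMSO in 10 bins of genes by exonic length (black, bars to the quartiles) and the median with the length offset (orange); right, genes called higher or lower in each bin under TMM scaling and with the offset. The median falls from 0.14 in the shortest to −0.56 in the longest bin. In the longest bin 167 genes were called lower and 1 higher under TMM scaling, and 25 lower and 36 higher with the offset.

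The zinc importer foi (FBgn0024236, chr3L:8525244-8534503, plus strand, build dm6), a ZIP-family transporter of the plasma membrane needed for cell migration in the fly gonad, gave the clearest response. Its level was 64.5, 45.1 and 59.6 CPM in DMSO and 195, 258 and 319 CPM at 100 µmol/L. All treated libraries lay well above all controls. The rise was 4.55-fold (log2 fold change 2.19, SE 0.17, edgeR adjusted p 3.25e-06), and it held without each library in turn, with adjusted p of at most 7.1e-05.

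The response of foi set 100 µmol/L apart from the lower concentrations. Its mean was 68.6 ± 3.2 CPM at 25 and 68.8 ± 11.6 CPM at 50 µmol/L against 257 ± 62.1 CPM at 100 µmol/L (SD, n = 3 each). The log2 difference of 100 from 25 µmol/L was 1.91 (SE 0.17, edgeR adjusted p 2.2e-05) and from 50 µmol/L 1.90 (SE 0.17, adjusted p 2.85e-05). Both held without each library in turn.

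Most of the zinc handling list did not pass the test. Of 23 transporters, metallothioneins and regulators on the list 14 could be tested. Of these 2 rose (14.3%, against 1.58% of all tested genes) and none fell, with a median log2 fold change of 0.02. The second, ZnT63C, an exporter of zinc from the cell, rose from 132, 122 and 114.8 CPM to 158, 178 and 151 CPM (log2 fold change 0.40, SE 0.10, edgeR adjusted p 0.0315). Its call was kept only without DMSO replicate 1 and was lost without any of the other 5 libraries, with adjusted p up to 0.154. The metallothionein MtnA, a metal-binding stress marker, stood at 20.1, 22.4 and 27.0 CPM in DMSO and at 20.7, 10.7 and 14.2 CPM at 100 µmol/L (log2 fold change −0.59, adjusted p 0.148).

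None of 14 tested genes of copper and iron handling and none of 8 heme genes passed the edgeR test. At an unadjusted p under 0.05, 2 of the former were lower and 1 of the latter was higher, and DESeq2 called 0 in both lists. At that edgeR p, 705 of all 7328 tested genes were higher and 893 lower. At a median log2 fold change of 0.20, 6 of the 8 heme genes had positive values.

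Genes known from the hypoxia response went in both directions. Ldh (FBgn0001258, chr3L:6259105-6262694, minus strand), lactate dehydrogenase, measured 4.38, 3.40 and 6.72 CPM in DMSO and 20.6, 14.8 and 12.6 CPM at 100 µmol/L. The groups did not overlap and the rise was 3.27-fold (log2 fold change 1.71, SE 0.29, edgeR adjusted p 0.00422). CG11825 (FBgn0033519, chr2R:10420414-10423650, minus strand), a known hypoxia responder of the fly, measured 6.91, 4.45 and 5.25 CPM in DMSO and 25.4, 15.4 and 16.4 CPM at 100 µmol/L. It was 3.44-fold higher (log2 fold change 1.78, SE 0.27, adjusted p 0.00277), although the exons of CG33474 lie on its opposite strand, and whether counting used the strand is not stated.

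The hypoxia-induced inhibitor of TOR scyl (FBgn0041094, chr3L:11252307-11256172, plus strand) went the other way, from 5.04, 3.14 and 3.78 CPM in DMSO to 0.648, 0.404 and 0.866 CPM. Its 5.83-fold fall (log2 fold change −2.54, SE 0.44, edgeR adjusted p 0.00422) and both rises held without each library in turn and with the length offset. Hph, the prolyl hydroxylase that marks the hypoxia factor for decay, was 1.28-fold higher (adjusted p 0.0427), a call lost whenever any of the 6 libraries was left out, with adjusted p up to 0.184. The gene of the hypoxia factor itself, sima, stood at 21.0, 10.3 and 10.7 CPM in DMSO and 8.56, 7.89 and 4.44 CPM at 100 µmol/L (log2 fold change −1.03, adjusted p 0.0896). In all, 3 of 10 tested members rose and 1 fell, against 1.58% and 3.59% of all tested genes, with a median of −0.13.

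Of 12 tested glycolysis genes 1 was higher (8.33%, against 1.58% of all tested genes) and none was lower, with a median log2 fold change of 0.10. The gene was Tret1-1, a trehalose transporter, at 10.9, 8.24 and 9.98 CPM in DMSO and 16.9, 15.0 and 24.7 CPM at 100 µmol/L (log2 fold change 0.97, SE 0.24, edgeR adjusted p 0.0281). Its call was lost without any 1 of the DMSO libraries or without 100 µmol/L replicate 3, with adjusted p up to 0.19.

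**Figure D3:**
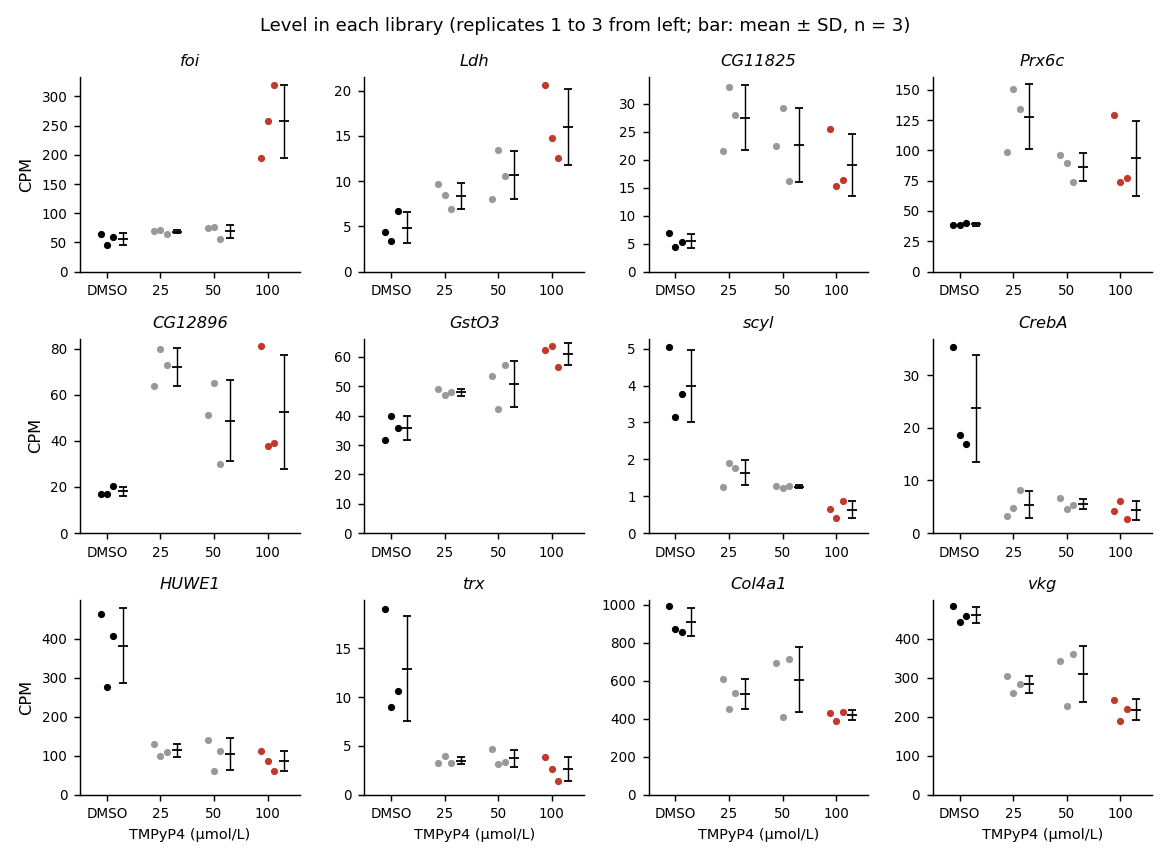
CPM of 12 genes in each library (points, replicates 1 to 3 from left) of the DMSO, 25, 50 and 100 µmol/L groups, with mean ± SD (n = 3) beside them; each y axis starts at 0. In all 12 genes the 3 libraries at 100 µmol/L do not overlap the 3 DMSO libraries, which largely follows from picking them among called genes. Among them foi is high at 100 µmol/L alone.

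Of 43 tested genes of glutathione and antioxidant metabolism 5 were higher (11.6%, against 1.58% of all tested genes) and none was lower. The median log2 fold change was 0.18, and 33 of the 43 had positive values. These genes are short, with a median exonic length of 954 bases against 2084 over all tested genes. With the length offset the median was 0.08, with 5 genes higher and 1 lower. The peroxiredoxin Prx6c (FBgn0033518, chr2R:10418718-10419761, plus strand), an enzyme that reduces peroxides, was even across DMSO at 38.7, 38.1 and 40.3 CPM and reached 129, 73.6 and 77.4 CPM. It was 2.4-fold higher (log2 fold change 1.26, SE 0.19, edgeR adjusted p 0.00281). Its relative CG12896 (FBgn0033521, chr2R:10426880-10427915, minus strand) went from 17.0, 16.7 and 20.5 CPM to 81.0, 37.8 and 38.8 CPM (log2 fold change 1.54, SE 0.28, adjusted p 0.00532). In both genes replicate 1 was the highest treated library and no treated library overlapped DMSO, and both calls held without each library in turn.

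The omega-class glutathione transferase GstO3 (FBgn0035904, chr3L:8518885-8520295, plus strand) stood at 31.7, 39.9 and 35.7 CPM in DMSO and at 62.2, 63.7 and 56.6 CPM at 100 µmol/L. This 1.7-fold rise (log2 fold change 0.77, SE 0.13, edgeR adjusted p 0.00422) held without each library in turn. GstO2 rose 1.53-fold (adjusted p 0.0131) and the delta-class GstD2 2.79-fold, from 2.3, 1.7 and 1.79 CPM to 4.8, 6.27 and 5.3 CPM (adjusted p 0.0192). Both calls were lost without DMSO replicate 3 and without 100 µmol/L replicate 2 or 3, with adjusted p up to 0.0895 for GstO2 and 0.0812 for GstD2.

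Several of these genes are neighbours, an arrangement singled out after their values were seen. Within 15 kb of the start of foi 7 genes were tested, and the 3 higher ones were foi, GstO2 and GstO3, with GstO2 ending 1742 bases before foi. GstO1, between them, measured 18.1, 17.8 and 15.3 CPM in DMSO and 22.2, 20.6 and 21.4 CPM at 100 µmol/L and was not called (log2 fold change 0.33, edgeR adjusted p 0.32), and ergic53 on the other side had a log2 fold change of 0.00. Around the start of CG11825 the 3 higher of 7 tested genes were Prx6c, CG11825 and CG12896, which span 9198 bases together with Prx6b, a lowly expressed peroxiredoxin at 2.49 ± 0.546 CPM in DMSO and 4.78 ± 2.80 CPM at 100 µmol/L (SD, n = 3; adjusted p 0.144). Peroxiredoxin genes here are near copies, and how the counting split reads between them is not stated. Over the genome 4 of 7255 pairs of adjacent tested genes were both higher and 18 were both lower.

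**Figure D4:**
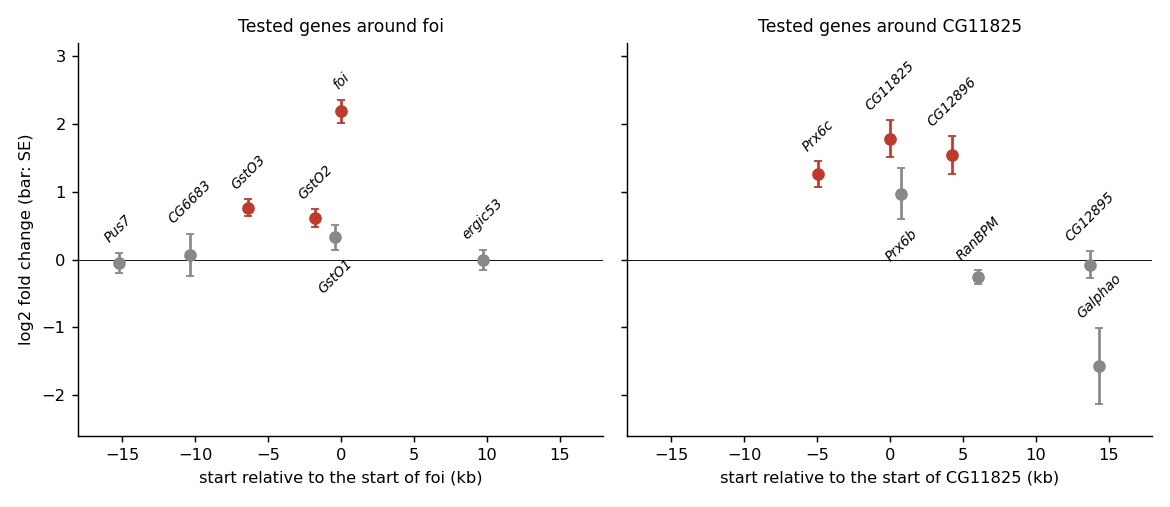
Log2 fold change at 100 µmol/L against DMSO with its SE for the tested genes around foi (left) and around CG11825 (right), by the distance of their starts from the start of that gene in kb; red marks genes called higher. At each place 3 of 7 tested genes were called, foi with GstO2 and GstO3, and CG11825 with Prx6c and CG12896.

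The classical stress programmes had 1 called gene each, a share of 6.25% in the heat shock and unfolded protein lists and 2.86% in the immunity list, against 5.17% of all tested genes. Of 16 tested heat shock genes 1 was higher and none was lower, with a median log2 fold change of 0.03. That gene, the abundant chaperone gene Hsp83, measured 7667, 7311 and 6440 CPM in DMSO and 9944, 8866 and 12064 CPM at 100 µmol/L (log2 fold change 0.53, SE 0.14, edgeR adjusted p 0.0416), and its call was lost when any 1 library was left out, with adjusted p up to 0.245. In the unfolded protein and integrated stress list, with a median of 0.00, 1 of 16 was higher, crc, a transcription factor of the amino acid response, at 1.41-fold (adjusted p 0.0206). In the immunity list, with a median of 0.04 (−0.02 with the length offset), 1 of 35 was higher, pirk, an inhibitor of the Imd pathway, which went from 10.1, 14.3 and 20.1 CPM to 35.1, 21.4 and 28.2 CPM (log2 fold change 0.94, SE 0.24, adjusted p 0.0338). The crc call was lost without DMSO replicate 2 or 3 and without 100 µmol/L replicate 1 or 3, with adjusted p up to 0.129. The pirk call was lost without DMSO replicate 1 or 2 and without 100 µmol/L replicate 1 or 3 (up to 0.14), and with the length offset (0.0586).

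No gene of the DNA damage (24 tested), DNA replication (36) or apoptosis (9) lists passed the edgeR test. At an unadjusted p under 0.05 the DNA damage list had 1 higher and 5 lower genes, the replication list 2 and 1, and the apoptosis list 2 and 0, and DESeq2 called 1 gene lower in the first and 0 in the others. At that edgeR p, 705 of all 7328 tested genes were higher and 893 lower, and DESeq2 called 373 lower. The lists had median log2 fold changes of −0.07, 0.03 and 0.18.

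Proteins that unwind or bind quadruplexes were lower in 2 of 22 tested genes (9.09%, against 3.59% of all tested genes) and higher in none, with a median log2 fold change of −0.24 and −0.12 with the length offset. Of these, the hnRNP gene Hrb27C measured 79.6, 46.4 and 45.3 CPM in DMSO and 32.9, 27.9 and 17.1 CPM at 100 µmol/L (log2 fold change −1.15, SE 0.31, edgeR adjusted p 0.0406). Its call was lost without DMSO replicate 1 or 3 and without 100 µmol/L replicate 2 or 3, with adjusted p up to 0.197, and with the length offset the adjusted p was 0.19. None of 5 tested telomere capping genes was called by edgeR, 1 was higher at an unadjusted p under 0.05, and DESeq2 called 1 higher. Over all 7328 tested genes 705 were higher at that edgeR p, and DESeq2 called 170 higher.

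CrebA (FBgn0004396, chr3L:15535395-15553214, plus strand), a leucine-zipper factor that drives genes of the secretory pathway, went from 35.3, 18.7 and 17.0 CPM in DMSO to 4.28, 6.07 and 2.60 CPM. The 5.68-fold fall (log2 fold change −2.51, SE 0.37, edgeR adjusted p 0.00277) held without each library in turn and with the length offset, where the log2 fold change was −2.30. DMSO replicate 1 was the highest library, and the lowest DMSO library was still above every treated one.

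The corepressor gene Smr (FBgn0265523, chrX:12684203-12742618, minus strand) measured 29.8, 14.9 and 16.7 CPM in DMSO and 5.83, 3.84 and 2.06 CPM at 100 µmol/L. The fall was 5.28-fold (log2 fold change −2.40, SE 0.39, edgeR adjusted p 0.00369). The histone methyltransferase gene trx (FBgn0003862, chr3R:14263358-14286903, minus strand) fell from 19.1, 9.03 and 10.6 CPM to 3.89, 2.63 and 1.41 CPM (log2 fold change −2.30, SE 0.38, adjusted p 0.00369). With the length offset these log2 fold changes shrank to −1.47 and −1.43 but stayed past the threshold. Exons of Smr overlap lncRNA:CR43963 on its own strand and asRNA:CR45623 on the other, and those of trx overlap CG14839 and asRNA:CR46020 on the other, so their counts are uncertain to that degree.

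Of 34 tested Polycomb and trithorax genes, which keep chromatin silent or active, 11 were lower (32.4%, against 3.59% of all tested genes) and none was higher, with a median log2 fold change of −0.41. With the length offset 1 remained lower, trx, and the median was −0.09. Of the 11 lower genes, 4 held without each library in turn: trx, the chromatin remodeller kis, the acetyltransferase gene nej and osa, a subunit of the Brahma complex. The gene nej measured 84.5, 54.7 and 47.2 CPM in DMSO and 28.1, 26.1 and 13.0 CPM at 100 µmol/L (log2 fold change −1.49, SE 0.27, edgeR adjusted p 0.00553, and 0.128 with the offset). The gene kis measured 129, 63.1 and 71.5 CPM and 40.5, 31.9 and 24.6 CPM (log2 fold change −1.44, SE 0.23, adjusted p 0.00321, and 0.168 with the offset). E(bx), a remodeller subunit, had a log2 fold change of −1.32 (adjusted p 0.0272), lost without DMSO replicate 1 or 3 and without 100 µmol/L replicate 2 or 3, with adjusted p up to 0.148.

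In the list of Pol II elongation and Mediator genes 2 of 20 were lower (10%, against 3.59% of all tested genes) and none was higher, with a median log2 fold change of −0.24. The Mediator kinase-module gene skd (FBgn0003415, chr3L:20992814-21027434, minus strand) measured 28.1, 17.0 and 18.9 CPM in DMSO and 7.65, 4.04 and 2.92 CPM at 100 µmol/L (log2 fold change −2.13, SE 0.38, edgeR adjusted p 0.00466), a call kept throughout, although exons of other genes lie on its opposite strand. The other, the coactivator gene Ncoa6, stood at −1.80 (adjusted p 0.0389) and kept its call only without DMSO replicate 2, with adjusted p up to 0.207, and lost it with the length offset (0.188). The zinc-finger homeodomain repressor gene zfh1 (FBgn0004606, chr3R:30765926-30789202, plus strand) fell from 34.3, 21.2 and 24.2 CPM to 9.08, 11.5 and 6.71 CPM (log2 fold change −1.57, SE 0.24, adjusted p 0.00277). Ecdysone signalling had 3 of 12 tested genes lower (25.0%, against 3.59% of all tested genes) and a median of −1.04, the lowest of the lists (−0.32 with the offset). The 3 were Smr, the nuclear receptor gene Eip75B at −1.23 (adjusted p 0.049) and the coactivator gene tai at −1.03 (adjusted p 0.0307), and the last 2 calls were lost without DMSO replicate 1 or 3 and without 100 µmol/L replicate 2 or 3 (adjusted p up to 0.253 and 0.165) and with the length offset (0.504 and 0.515).

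Of 19 tested matrix genes 7 fell and none rose, 36.8% of them lower against 3.59% of all tested genes, with a median log2 fold change of −0.49. Collagen IV, the network-forming collagen of basement membranes, is encoded by the neighbours Col4a1 (FBgn0000299, chr2L:5029609-5037279, plus strand) and vkg (FBgn0016075, chr2L:5012144-5028191, minus strand). Col4a1 measured 995, 873 and 858 CPM in DMSO and 430, 387 and 436 CPM at 100 µmol/L, and vkg 485, 444 and 459 CPM and 243, 189 and 220 CPM. Replicates were close within each group and the groups were far apart. The falls were 2.18-fold for Col4a1 (log2 fold change −1.12, SE 0.17, edgeR adjusted p 0.00277) and 2.12-fold for vkg (log2 fold change −1.09, SE 0.14, adjusted p 0.00105), and both held in every fit without 1 library and with the length offset at −0.76 and −0.70.

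The laminin subunit genes fell too, but lost their calls with the length offset. LanA went from 909, 610 and 785 CPM to 469, 352 and 364 CPM (log2 fold change −0.96, SE 0.17, edgeR adjusted p 0.00436, and 0.351 with the offset). LanB1 had a log2 fold change of −0.65 and LanB2 of −0.68 (adjusted p 0.0112 and 0.0141, and 0.208 and 0.058 with the offset). Both were lost without DMSO replicate 1 and without 100 µmol/L replicate 2, LanB2 also without replicate 3, with adjusted p up to 0.0643 and 0.09. The perlecan gene trol, whose protein binds laminin and collagen, fell 3.21-fold (log2 fold change −1.68, SE 0.22, adjusted p 0.00105), and with the offset it stood at −0.57 (adjusted p 0.0704). With the offset the list kept 2 lower genes and a median of −0.19.

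Hemocyte markers overlap this list. Of 11 tested markers 7 were lower (63.6%, against 3.59% of all tested genes) and none was higher, with a median log2 fold change of −0.75, and their summed level was 2880 to 3153 CPM in DMSO and 1766 to 1936 CPM at 100 µmol/L. With the length offset 3 were lower and the median was −0.29. In bulk RNA, fewer cells of a type and less RNA per cell cannot be told apart. The clotting protein gene Hml fell from 473, 413 and 451 CPM to 229, 182 and 238 CPM (log2 fold change −1.04, SE 0.18, edgeR adjusted p 0.00422), kept without each library and at an adjusted p of 0.402 with the offset. The phagocytosis receptor gene eater was low throughout, at 2.96, 1.96 and 2.00 CPM in DMSO and 0.648, 0.809 and 0.325 CPM at 100 µmol/L (log2 fold change −2.01, adjusted p 0.0315), and kept its call only without DMSO replicate 2, with adjusted p up to 0.18 otherwise.

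Other hemocyte markers did not pass the test. The scavenger receptor gene crq measured 88.2, 77.7 and 94.3 CPM in DMSO and 91.9, 80.7 and 85.4 CPM at 100 µmol/L (log2 fold change −0.01, edgeR adjusted p 0.968). The GATA factor gene srp measured 92.8, 55.3 and 60.0 CPM and 41.6, 37.0 and 28.7 CPM (log2 fold change −0.96, adjusted p 0.0619). A further engulfment receptor gene, NimC4, rose from 6.36, 8.50 and 9.66 CPM to 15.4, 16 and 25 CPM (log2 fold change 1.21, SE 0.25, adjusted p 0.0131), and lost its call without DMSO replicate 1 and without 100 µmol/L replicate 3, with adjusted p up to 0.0993. It was chosen after its value was seen.

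Of 25 tested actin and spectrin genes 3 were lower (12.0%, against 3.59% of all tested genes) and none was higher, with a median log2 fold change of −0.22. The spectraplakin gene shot (FBgn0013733, chr2R:13864237-13942110, minus strand), which ties actin to microtubules, measured 114.5, 53 and 67 CPM in DMSO and 24.2, 19.2 and 12.3 CPM at 100 µmol/L (log2 fold change −2.08, SE 0.26, edgeR adjusted p 0.00105). Its call held without each library and with the length offset, at −0.77. The heavy spectrin gene kst fell by 1.08 on the log2 scale (SE 0.18, adjusted p 0.00422, and 0.646 with the offset), and ena, an actin polymerase gene, fell by 1.49 (SE 0.35, adjusted p 0.02), lost without DMSO replicate 1 and without 100 µmol/L replicate 2 or 3, with adjusted p up to 0.118. With the offset the median of the list was 0.11, on the other side of 0, with 2 genes higher and 2 lower.

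Of 15 tubulin and motor genes 3 rose and 1 fell, against 1.58% and 3.59% of all tested genes, with a median log2 fold change of 0.07. Tbcb, a cofactor that folds alpha-tubulin, measured 88.1, 91.1 and 91.9 CPM in DMSO and 120, 146 and 140 CPM at 100 µmol/L (log2 fold change 0.58, SE 0.09, edgeR adjusted p 0.00366) and held in every fit without 1 library. nudC, a dynein partner, rose from 162, 171 and 151 CPM to 208, 217 and 226 CPM (log2 fold change 0.43, SE 0.09, adjusted p 0.0113), lost without DMSO replicate 3 and without 100 µmol/L replicate 2 or 3 at adjusted p up to 0.0746. The third, the cofactor gene Tbce at 0.35, kept its call only without DMSO replicate 2, with adjusted p up to 0.172, and lost it with the length offset (0.0738). The dynein heavy chain gene Dhc64C fell from 295, 251 and 299 CPM to 179, 143 and 153 CPM (log2 fold change −0.83, SE 0.16, adjusted p 0.00639), and with the length offset it stood at 0.03 (adjusted p 0.95).

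In the Hippo list 3 of 13 tested genes were lower (23.1%, against 3.59% of all tested genes) and none was higher, with a median log2 fold change of −0.10. Expanded, encoded by ex (FBgn0004583, chr2L:431227-448701, plus strand) and an upstream activator of the pathway, went from 54.4, 30.1 and 35.5 CPM to 16.6, 17.2 and 9.2 CPM (log2 fold change −1.50, SE 0.28, edgeR adjusted p 0.00636), with exons of crq on the opposite strand. Tgi, encoding a repressor that competes with the effector Yorkie, went from 106, 87.3 and 82.7 CPM to 49.8, 47.9 and 58.4 CPM (log2 fold change −0.82, SE 0.14, adjusted p 0.00465). Both held without each library and with the length offset, while kibra at −0.76 (adjusted p 0.0371) kept its call only without DMSO replicate 2, with adjusted p up to 0.187, and lost it with the offset (0.0865).

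In the growth signalling list 5 of 24 tested genes were lower and 1 was higher, 25.0% called against 5.17% of all tested genes, with a median log2 fold change of −0.26 (−0.07 with the length offset). The higher gene was Socs36E, an inhibitor of JAK/STAT signalling, at 74.1, 64.5 and 74.1 CPM in DMSO and 95.4, 121 and 121 CPM at 100 µmol/L (log2 fold change 0.66, SE 0.11, edgeR adjusted p 0.00422), kept in every fit without 1 library. The lower genes were the cyclic AMP genes dnc and rut, the Notch-modifying enzyme gene fng, the Wnt receptor gene fz2 and the receptor kinase inhibitor gene sty, from −2.62 for dnc to −0.82 for rut. Each of the 5 lost its call in 3 or more of the 6 fits without 1 library, always including those without DMSO replicate 1 and without 100 µmol/L replicate 2 or 3, with adjusted p up to 0.196. With the length offset fng kept its call (adjusted p 0.0187), while dnc, rut, fz2 and sty lost theirs (0.118, 0.506, 0.119 and 0.059). In the insulin and TOR list, with a median of −0.22, 2 of 19 were lower (10.5%), InR at −2.06 (adjusted p 0.0416) and gig at −0.43 (adjusted p 0.0272), and neither held without DMSO replicate 1 or 3 or without 100 µmol/L replicate 2 or 3 (adjusted p up to 0.197 and 0.114), nor with the length offset (0.204 and 0.756).

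Cell cycle genes gave 2 lower and 1 higher of 37 tested, a share of 8.11% that is near the 5.17% of all tested genes, with a median log2 fold change of −0.09. The mitotic phosphatase gene stg, the fly Cdc25, measured 138, 97.7 and 72.7 CPM in DMSO and 37.5, 42.5 and 20.5 CPM at 100 µmol/L (log2 fold change −1.64, SE 0.38, edgeR adjusted p 0.0194). The cyclin gene CycG measured 90.8, 51.5 and 64.0 CPM and 42.1, 32.4 and 27.2 CPM (log2 fold change −1.02, SE 0.21, adjusted p 0.0123). Neither gene's groups overlapped, both stayed past the threshold with the length offset, and both lost the call without DMSO replicate 1 and without 100 µmol/L replicate 2 or 3, with adjusted p up to 0.113 and 0.0775. The higher gene was E2f2, a repressive E2F factor, at 52.2, 50.5 and 49.5 CPM in DMSO and 70.4, 69.4 and 71.3 CPM at 100 µmol/L (log2 fold change 0.47, adjusted p 0.015), lost without DMSO replicate 3 and without 100 µmol/L replicate 2 or 3 at up to 0.0775.

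In the RNA interference list 3 of 14 tested genes were lower (21.4%, against 3.59% of all tested genes), with a median log2 fold change of −0.14 (−0.03 with the length offset). The piRNA protein gene aub measured 109, 125 and 125 CPM in DMSO and 85.3, 78.5 and 87.7 CPM at 100 µmol/L (log2 fold change −0.51, SE 0.09, edgeR adjusted p 0.00589) and held throughout. AGO1 at −1.64 (adjusted p 0.0328) and AGO2 at −0.49 (adjusted p 0.0219), the effectors of microRNA and small interfering RNA, lost their calls without DMSO replicate 1 or 3 and without 100 µmol/L replicate 2 or 3, with adjusted p up to 0.169 and 0.117, and with the length offset (0.0941 and 0.0544). In the splicing list, with a median of −0.06, 1 of 18 was lower (5.56%, against 3.59% of all tested genes). That gene, mbl, went from 12.8, 6.15 and 4.94 CPM to 1.43, 1.01 and 0.866 CPM (log2 fold change −2.84, SE 0.55, adjusted p 0.00789), lost only without 100 µmol/L replicate 3 at 0.0598. Not1, the scaffold of the main mRNA deadenylase, fell from 118, 73.5 and 84.8 CPM to 49.0, 32.2 and 25.5 CPM (log2 fold change −1.37, SE 0.24, adjusted p 0.00422), a gene chosen after its value was seen.

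Outside the lists, the giant ubiquitin ligase gene HUWE1 (FBgn0030674, chrX:15712628-15731935, plus strand) combined a high level with a deep fall, from 462, 276 and 408 CPM in DMSO to 111, 86.7 and 61.5 CPM. It was 4.43-fold lower (log2 fold change −2.15, SE 0.26, edgeR adjusted p 0.000883), and with the length offset the log2 fold change was −1.19 (adjusted p 0.00133). CG10543 went from 18.6, 12.8 and 10.2 CPM to 3.11, 1.42 and 2.49 CPM (log2 fold change −2.52, SE 0.44, adjusted p 0.00422). SkpB, a relative of the ubiquitin ligase subunit Skp, rose from 13.7, 18.6 and 16.7 CPM to 31.1, 32.4 and 40.7 CPM (log2 fold change 1.09, SE 0.16, adjusted p 0.00277). These 3 calls held without each library and with the length offset.

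Of the 15 genes with the largest increases 6 kept the call without each library in turn, foi, CG11825, Ldh, CG12896, Uhg8 and Prx6c, and of the 15 with the largest decreases 7 did, CG10543, CrebA, Smr, trx, HUWE1, skd and shot. All 13 also passed with the length offset. Among the remaining decreases were Tis11, which directs the decay of AU-rich mRNAs, from 17.3, 6.80 and 5.78 CPM to 2.33, 2.02 and 0.108 CPM, and the transcription factor genes bab2 and chinmo at −1.92 each. Their edgeR adjusted p of 0.0198, 0.0194 and 0.0299 rose to as much as 0.12, 0.12 and 0.17 without 1 library, with losses in each case without DMSO replicate 1 and without 100 µmol/L replicate 2 or 3. Among the remaining increases were hoe2 at 1.25 (adjusted p 0.0123), the junction protein gene Ssk at 1.47 (adjusted p 0.0272) and the odorant-binding protein gene Obp44a at 1.52 (adjusted p 0.0465). Each was lost without DMSO replicate 1 and without 100 µmol/L replicate 3, with adjusted p up to 0.0993, 0.111 and 0.342. With the length offset chinmo, Ssk and Obp44a lost their calls (adjusted p 0.207, 0.0522 and 0.0704). The 10 genes with the smallest p all kept the call without each library, but Bruce, an apoptosis inhibitor gene, and zormin, besides trol, lost it with the length offset (adjusted p 0.394 and 0.154).

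Shorter genes with steady changes, picked after their values were seen, included BI-1, encoding the Bax inhibitor of the endoplasmic reticulum, at 52.5, 43.0 and 49.4 CPM in DMSO and 74.4, 76.0 and 75.2 CPM (log2 fold change 0.64, SE 0.11, edgeR adjusted p 0.00422). Dph1, an enzyme gene of diphthamide synthesis, rose 1.64-fold (adjusted p 0.00422). In the other direction Gabat, encoding GABA transaminase, fell from 19.1, 20.0 and 19.2 CPM to 9.46, 6.87 and 7.57 CPM (log2 fold change −1.28, SE 0.21, adjusted p 0.00343). All 3 held without each library in turn and with the length offset, which left Gabat at −1.30.

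Noncoding RNAs made up 10 of the 116 higher genes (8.62%) and 2 of the 263 lower genes (0.76%), against 2.25% of all tested genes. Of 83 tested long noncoding RNAs 9 were higher and 1 was lower, 12.0% called against 5.17% of all tested genes. Their median log2 fold change was 0.29, and their median exonic length was 944 bases against 2084 over all tested genes. With the length offset the median was 0.19, with 7 higher and 1 lower. lncRNA:CR44526 (FBgn0265719, chr3L:8692703-8693191, plus strand) was steady in DMSO at 8.88, 9.03 and 9.24 CPM and reached 17.4, 23.5 and 20.8 CPM (log2 fold change 1.18, SE 0.21, edgeR adjusted p 0.00541). Of 19 tested snoRNAs and hosts 1 was called (5.26%, near the 5.17% of all tested genes), with a median of 0.32 and 0.13 with the length offset. That gene, the snoRNA host Uhg8, went from 4.60, 4.58 and 3.36 CPM to 11, 14.2 and 9.09 CPM (log2 fold change 1.44, SE 0.27, adjusted p 0.00647), with the gene atk on the opposite strand. Both held without each library in turn, as did lncRNA:CR42862 in the other direction, from 267, 120 and 241 CPM to 95.9, 83.1 and 70.4 CPM (log2 fold change −1.34, SE 0.24, adjusted p 0.00541), which shares exons with CG33229 on its own strand.

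Of 727 genes in the bin of longest genes 1 was higher, lncRNA:Hsromega, whose 21710 exonic bases merge all annotated exons. This stress-responsive nuclear RNA measured 140, 106 and 82.1 CPM in DMSO and 194, 200 and 222 CPM at 100 µmol/L (log2 fold change 0.91, SE 0.20, edgeR adjusted p 0.0141). With the length offset its log2 fold change was 2.04. Of 7 tested dosage compensation genes 1 was called (14.3%, against 5.17% of all tested genes), with a median of 0.06. That gene, lncRNA:roX2, whose RNA coats the male X chromosome, rose from 130, 130 and 124 CPM to 162, 204 and 212 CPM (log2 fold change 0.59, SE 0.12, adjusted p 0.0114). Both calls were lost without 100 µmol/L replicate 2 or 3, that of lncRNA:Hsromega also without DMSO replicate 3, with adjusted p of up to 0.0775 in each. On the X chromosome 0.94% of 1277 tested genes were higher and 3.76% lower. Arms 2L, 2R, 3L and 3R had 1.36% to 2.02% higher and 3.11% to 4.44% lower. The median exonic length was 2341 bases on the X and 1989 to 2082 bases on those arms.

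Of 84 tested cytosolic ribosomal protein genes 80 had positive log2 fold changes, with a median of 0.16, and with the length offset the median was 0.02. Only 1, RpL38, was called higher (0.54), a share of 1.19% against 1.58% of all tested genes. The medians were 0.12 for 71 mitochondrial ribosomal protein genes, 0.11 for 34 proteasome genes, 0.09 for 45 translation factor genes and 0.03 for 64 nuclear genes of the respiratory chain, and with the length offset they were −0.02, 0.02, 0.02 and −0.09. These lists had 0, 1, 1 and 1 genes called higher by edgeR and none lower, the 3 genes being Prosalpha4, eEF5 and Cyt-c-p. Those shares were 0%, 2.94%, 2.22% and 1.56%, against 1.58% higher over all tested genes. At an unadjusted p under 0.05 the mitochondrial ribosomal list had 4 higher genes and DESeq2 called 0. Over all 7328 tested genes 705 were higher at that edgeR p. RpL38 and the other 3 called genes each lost the call without DMSO replicate 1 or 3 and without 100 µmol/L replicate 2 or 3, with adjusted p up to 0.239 for RpL38, and with the length offset (0.0661 for RpL38). Transcripts of the mitochondrial genome were positive for 12 of 13 genes with a median of 0.42 (0.25 with the offset), and their summed level was 11098 to 20763 CPM in DMSO and 20442 to 30628 CPM at 100 µmol/L. None passed the edgeR test, 7 were higher at an unadjusted p under 0.05, and DESeq2 called 0.

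**Figure D5:**
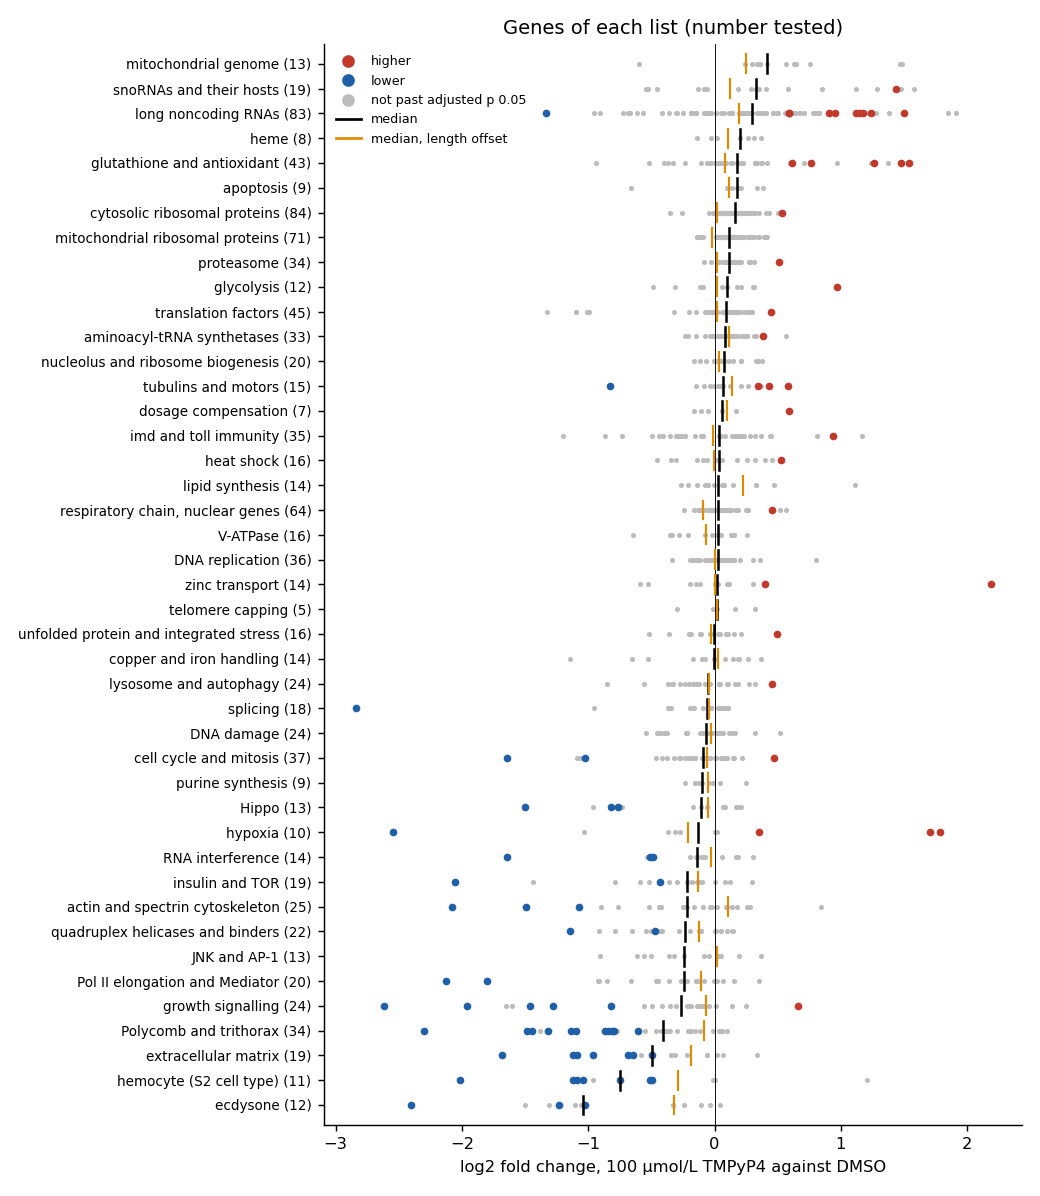
Log2 fold change at 100 µmol/L against DMSO of each tested gene of every list with at least 5 tested genes (points, number tested in brackets; red higher, blue lower, grey not past the threshold), with the median under TMM scaling (black) and with the length offset (orange), ordered by the former. Ecdysone, hemocyte and matrix genes lie lowest with medians of −1.04, −0.75 and −0.49, and all 3 medians lie closer to 0 with the offset.

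In 7 further lists the share of called genes was below the 5.17% of all tested genes. Lysosome and autophagy had 1 higher gene of 24 with a median log2 fold change of −0.05, and aminoacyl-tRNA synthetases 1 of 33 with a median of 0.08. The genes, GILT1 at 0.45 (edgeR adjusted p 0.0206) and CysRS at 0.39 (0.0369), were lost without DMSO replicate 1 and without 100 µmol/L replicate 2 or 3, CysRS also without each other library, with adjusted p up to 0.136 and 0.17, and with the length offset. Exons of each overlap a gene on the opposite strand, CG14377 for GILT1 and sotv for CysRS. No gene was called by edgeR among 13 JNK, 20 nucleolus, 9 purine, 14 lipid synthesis and 16 V-ATPase genes, with medians of −0.24, 0.07, −0.10, 0.03 and 0.03 (0.02, 0.04, −0.05, 0.22 and −0.07 with the length offset). At an unadjusted p under 0.05 these lists had 3, 4, 0, 3 and 5 genes, and DESeq2 called 2, 1, 0, 2 and 1. Over all 7328 tested genes 1598 passed at that edgeR p, and DESeq2 called 543. Summed markers of lamellocytes were 16.9 to 19.7 CPM in DMSO and 20.3 to 27.9 CPM at 100 µmol/L, those of crystal cells 3.61 to 4.58 and 1.41 to 4.54 CPM, and those of muscle 9.55 to 17.1 and 7.77 to 12.9 CPM.

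Few genes separated 100 µmol/L from the other concentrations. Between 100 and 25 µmol/L 15 genes differed (0.205% of those tested), 11 higher (0.15%) and 4 lower (0.0546%) at 100 µmol/L, and between 100 and 50 µmol/L 3 did (0.0409%), 2 higher (0.0273%) and 1 lower (0.0136%). Of these, only foi held without each library in turn in either comparison. Among the 11 genes higher than at 25 µmol/L, the heat shock protein gene Hsp68, singled out after its values were seen, measured 2268, 1407 and 1057 CPM at 25 µmol/L and 3490, 3918 and 4689 CPM at 100 µmol/L (log2 difference 1.35, SE 0.25, edgeR adjusted p 0.0321), while the DMSO libraries held 4843, 4479 and 2527 CPM. The level at 100 µmol/L thus overlapped that of DMSO (log2 fold change 0.03, adjusted p 0.964). The Hsp68 call against 25 µmol/L was kept in 1 of the 6 fits without 1 library, that without 25 µmol/L replicate 1, and reached an adjusted p of 0.273.

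The Imd inhibitor pirk had no steady order with concentration. Its mean was 14.8 ± 5.01 CPM in DMSO, 77.1 ± 19.8 CPM at 25, 9.02 ± 0.604 CPM at 50 and 28.3 ± 6.85 CPM at 100 µmol/L (SD, n = 3 each). At 100 µmol/L it was below 25 (log2 difference −1.44, SE 0.23, edgeR adjusted p 0.0201) and above 50 µmol/L (1.65, SE 0.27, adjusted p 0.026), and these calls held in 2 and 1 of the 6 fits without 1 library, with adjusted p up to 0.17 and 0.185. The methionine sulfoxide reductase gene MsrA, which repairs oxidised proteins and was named after its values were seen, was lowest at 100 µmol/L, at 95.4, 100.3 and 94.9 CPM against 163, 151 and 139 CPM at 50 (log2 difference −0.64, SE 0.10, adjusted p 0.026) and 145, 150.1 and 143 CPM at 25 µmol/L (−0.59, SE 0.10, adjusted p 0.0234). The groups did not overlap, but the calls were kept in 2 and 1 of the 6 reduced fits, with adjusted p up to 0.183 and 0.198. Against DMSO MsrA was not called at 100 µmol/L (log2 fold change −0.33, edgeR adjusted p 0.0699). For both genes the calls against either concentration were lost without 100 µmol/L replicate 3 and without at least 1 library of the other group.

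Myc, a growth regulator whose human relative is a classical quadruplex target, did not pass the filter on low counts. Its counts were 38, 6 and 8 in the DMSO libraries and 1, 1 and 0 at 100 µmol/L.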

How the data were processed

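The deposited table holds whole-number read counts per gene, not normalised, for all 12 libraries. Per the submitters' processing notes the tools were FastQC 0.11.8, MultiQC 0.9, HISAT2 2.0.5, SAMtools 1.7 and HTSeq 0.9.1, with build dm6, whose options are not given in the sources used here. Per the labels, libraries were stranded (dUTP), poly(A)-selected and prepared as a mixture with zebrafish RNA, and how zebrafish reads were set aside is not stated. The 5 entries for reads outside genes were left out (no feature 0.783 to 1.04%, ambiguous 1.87 to 2.71% of a library). Columns without a sample numbered 0. Of 17494 gene IDs 17358 had a symbol and position in annotation BDGP6.54, which uses dm6 coordinates and gave exonic lengths.

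Genes were filtered with filterByExpr (minimum count 10, minimum total 15), leaving 7328, and tested with edgeR 4.0.16 in R 4.3.3 (TMM, glmQLFit and glmQLFTest, group as the only term over all 12 libraries, two-sided). The Benjamini-Hochberg threshold was 0.05 over all tested genes. Dividing the size of a log2 fold change by the root of its F statistic gave the SE. A prior count of 2 entered log2 CPM. The length offset was a lowess curve (span 0.3) of centred log2 CPM on log2 exonic length for each library. The code was tested on simulated data. Alternatives were DESeq2 1.42.0, its size factors, upper quartile factors, no filter, the 6 compared libraries alone, a replicate block, a title-number block, the length offset and leaving out each library.

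Genes were named by a rule. Called genes with mean log2 CPM of at least 1 and no overlap of groups were eligible. From these came the 15 largest increases, the 15 largest decreases and the 10 smallest p. Up to 4 called members of each list were added without those limits, and Myc whatever its value. Exceptions are marked in the text. The values of 1 called member of a list are not reported here. The comparison, the 42 lists of genes by role and the 8 marker lists were chosen with earlier results of these data known, so they give no independent support.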

Additional observations from a re-analysis of the deposited data

How the results depend on the processing

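Counts of changed genes depended on the setting. Against 379 changed genes (116 higher, 263 lower), no filter on counts gave 777 (191 and 586), the length offset 209 (111 and 98), and leaving out 1 library 89 to 455 (24 to 98 higher, 65 to 357 lower), with DESeq2 at 543 and the 6 compared libraries alone at 520. A block of title-number runs left 1 gene, higher, and 0 lower in edgeR. With it 246 were higher and 302 lower at an edgeR unadjusted p under 0.05, 548 of 7328 tested genes. DESeq2 without that block called 373 lower. That block leaves 1 run with both groups, and the cause of the loss was not tested.

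Same-numbered replicates had correlations of their deviations of 0.226, 0.0165 and 0.189, and differently numbered ones of −0.317 to 0.188. Whether the numbers pair the libraries was not tested. The fit with the replicate block gave 446 genes, and a replicate block with the length offset, added after the data were seen, gave 143 (65 lower).

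Between 100 and 50 µmol/L, 3 genes became 35 with no filter, 9 with DESeq2, 1 with the title-number block and 1 to 5 without 1 library. Between 100 and 25 µmol/L, 15 became 70 with no filter, 24 with DESeq2 and 25 in the 6 libraries alone. The count was 1 to 23 without 1 library and 0 with the title-number block. With that block 255 of 7328 tested genes had an edgeR unadjusted p under 0.05. The length slope kept its sign throughout, at −0.252 to −0.147 without 1 library. Without 1 library the sign was bound to hold, as the slopes of the groups did not overlap.

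Of the 86 genes named by the rule, 1 changed sign, Dhc64C, at 0.033 with the length offset and 0.029 with the replicate block and offset. Leaving out 1 library could hardly turn a sign, as nearly all called genes had groups without overlap. Calls were lost by 85 with the title-number block, 36 with the length offset besides Dhc64C, 12 to 51 without 1 library, and 3 to 6 under each of the other planned settings. Precision is lowest for genes of few counts, and depth was lowest in 100 µmol/L replicate 2. The planned search of promoters for motifs was not run.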
